A study of Mus musculus with 4 samples.

Results

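The contacts of the involucrin gene (Ivl) were taken from 5C maps of the mouse epidermal differentiation complex, a cluster of skin genes on chromosome 3. A contact belonged to the set when at least one of its HindIII fragments had its midpoint at 92.34 to 92.42 Mb of the mm9 assembly, an 80 kb window around Ivl (chr3:92374834-92377637, minus strand). This rule uses position only. It selected 19 of 712 fragments and 5938 of 111588 contacts listed in at least 1 library. The libraries were 2 from primary epidermal keratinocytes and 2 from primary thymocytes, both labelled as coming from newborn C57BL/6 mice, with no allele, transgene or drug named for either. The keratinocytes had been plated for 15 hours at 32 °C in medium low in calcium, and the thymocytes were the total T cell population of crushed thymi without sorting. All cells were fixed with 1% formaldehyde for 10 minutes. The study describes the 2 libraries of a cell type as independent biological replicates, without stating whether they came from separate animals. The p-values of the comparison between cell types therefore measure the spread between these libraries. The p-values and q-values that the authors deposited come from a fit within each library and measure the spread over its contacts. The 5C tables hold contacts only, and the cell types were not checked against marker genes here.

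Involucrin is a precursor of the cornified envelope, the protein shell that transglutaminases crosslink beneath the membrane of a differentiating keratinocyte. Loricrin (Lor), the small proline-rich proteins (Sprr) and the late cornified envelope proteins (Lce) are built into the same shell, and their genes flank Ivl on the same chromosome. In 5C, fixed chromatin is cut with HindIII and religated, and pairs of probes are joined wherever a forward fragment was ligated to a reverse fragment, so a contact always pairs a fragment named F with one named R. The window held 10 forward and 9 reverse fragments. Each value was deposited as a corrected frequency, a frequency expected at that genomic distance, and a Z score, which is their difference divided by the standard deviation at that distance. A Z score of 0 therefore means a contact at the frequency expected in its library at that distance. Values in all 4 libraries are given below in the order keratinocyte library 1, keratinocyte library 2, thymocyte library 1, thymocyte library 2. Over all listed contacts of the locus the mean Z score was 0.24, 0.58, 0.66 and 0.76. A score of 0 is therefore below the average listed contact.

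The transcription start lies in fragment F855 (chr3:92377094-92378026), which holds the first exon of 24 bp and reaches 389 bp upstream. The 250 bases upstream of the start (chr3:92377638-92377887, mm9, minus strand) are shown because they are the promoter that F855 carries. Capitals mark a TGANTCA match, the letters bound by AP-1 factors, and a TATAAA match.

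Ivl promoter: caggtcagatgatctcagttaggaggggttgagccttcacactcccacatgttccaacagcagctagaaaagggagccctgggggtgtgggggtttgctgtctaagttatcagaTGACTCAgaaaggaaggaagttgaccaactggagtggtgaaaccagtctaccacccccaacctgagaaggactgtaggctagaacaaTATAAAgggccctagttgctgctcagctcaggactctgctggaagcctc

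The TGANTCA match lies 136 to 130 bases upstream of the start and the TATAAA match 49 to 44 bases upstream, without overlap. Both strands were searched. Of 32851 mouse promoters of the same length from RefSeq (GRCm38.p6), 6.75% held TGANTCA and 12.4% held TATAAA. These matches are letters in the sequence, and no binding was measured.

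A contact is read as the sequence of the joined probes. The junctions below stand for contacts described later, and the capitals mark the HindIII site that ligation restores. The first 30 bases are the plus strand at the end of the forward fragment, and the last 30 are the minus strand at the end of the reverse fragment. All 19 probes of the window matched mm9 at the ends of their fragments. R856 (chr3:92378027-92379194) begins 390 bp upstream of the Ivl start, and R854 (chr3:92376687-92377093) lies in the intron, with 15 bases in the second exon.

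F801-R856, Sprr2g and Sprr2h with the region upstream of Ivl: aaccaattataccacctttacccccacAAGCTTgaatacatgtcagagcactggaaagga
F683-R856, Lor with the region upstream of Ivl: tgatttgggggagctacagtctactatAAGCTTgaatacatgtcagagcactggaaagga
F130-R854, enhancer E2 with the Ivl intron: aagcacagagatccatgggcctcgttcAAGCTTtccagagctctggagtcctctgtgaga
F702-R870, Lelp1 with the end of the window: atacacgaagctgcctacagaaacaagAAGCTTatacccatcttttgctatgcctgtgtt
F176-R856, S100a8 with the region upstream of Ivl: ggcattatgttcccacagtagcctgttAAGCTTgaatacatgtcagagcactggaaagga

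The 4 libraries listed 5339, 3419, 2219 and 3035 of the involucrin contacts, out of 95692, 67210, 45861 and 53420 contacts in all. Both keratinocyte libraries listed 3031 of them, both thymocyte libraries 1677 and all 4 libraries 1337. A contact that was not listed has no value. The read counts behind the frequencies were not used here, so the depth is unknown. Replicates resembled each other weakly. Across the involucrin contacts, Pearson's r of the Z score was 0.25 for the keratinocyte pair (3031 contacts) and 0.21 for the thymocyte pair (1677 contacts), but 0.30 between keratinocyte library 2 and thymocyte library 1 (1860 contacts). These values are across contacts that share fragments.

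The fragment with the transcription start had values in keratinocyte library 1 only. There F855 was listed with 190 of 341 reverse fragments (55.7%), at a mean Z score of 0.07. Its 21 contacts with enhancer fragments had a mean Z score of 0.09 and a highest value of 1.27, and none passed a q-value of 0.05. Only 2 contacts of F855 passed it. One joined the start to R1633 at Pip5k1a, a lipid kinase, and Vps72, a subunit of chromatin remodelling complexes, at a Z score of 3.16. The other joined it to R207 near Pglyrp4, which codes for an antibacterial peptidoglycan recognition protein, at a Z score of 3.00. With 1 library these calls had no replicate, and the promoter itself could not be compared between the cell types. The neighbouring fragments R854 and R856 carry the description in its place.

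The fragments of the window were not measured equally well. In keratinocyte library 1 every fragment was listed with 55.7% or more of the opposite fragments. In keratinocyte library 2, 5 of 18 fragments were listed with under 20%, in thymocyte library 1 there were 7 of 18, and in thymocyte library 2 there were 4 of 18. Those sparse fragments had higher Z scores on average, although single well listed fragments lay above the lowest sparse one in keratinocyte library 2 and thymocyte library 2. Their mean Z score was 1.33, 2.01 and 1.93 in these 3 libraries, against 0.50, 0.59 and 0.88 for the better listed fragments. Their contacts passed a q-value of 0.05 in 29.5%, 37.1% and 32.4% of cases, against 10.2%, 9.30% and 14.4%. Over all fragments of each library the difference ran the same way, with 33.4% against 10.4% in keratinocyte library 2. Counts of called contacts are therefore given also over fragments listed with at least 20% of the opposite fragments in both libraries of the cell type, a limit set after seeing the data.

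**Figure D1:**
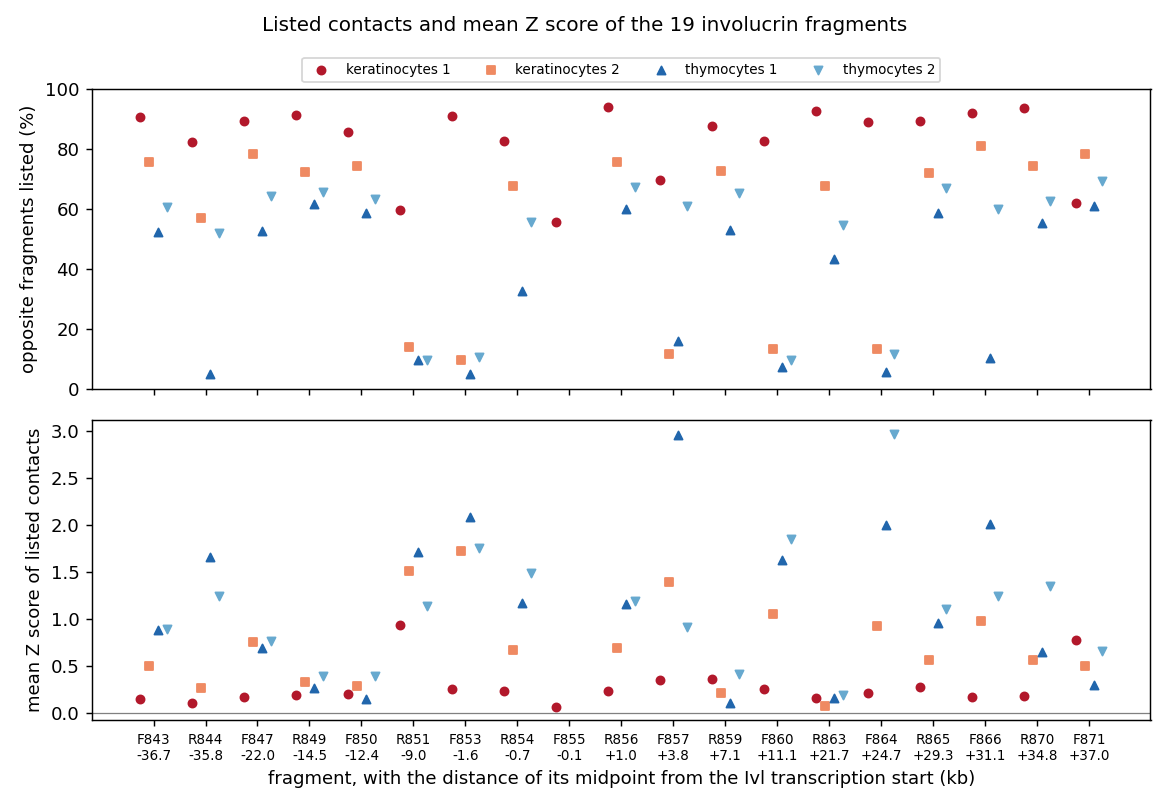
For each of the 19 fragments of the involucrin window, ordered by the distance of the midpoint from the Ivl transcription start (kb), the upper panel plots the percentage of opposite fragments with a listed contact and the lower panel the mean Z score of the listed contacts, 1 point per library. Fragment F855 has a point for keratinocyte library 1 only, and in the other 3 libraries fragments listed under 20% average 1.33, 2.01 and 1.93, against 0.50, 0.59 and 0.88 for the rest.

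The corrected frequency of the involucrin contacts fell with genomic distance, and it exceeded the expected frequency most clearly at 200 to 500 kb in keratinocytes. At that distance the median observed frequency was 380, 194, 119 and 125, beside a median expected frequency of 306, 171, 108 and 116. The median ratio of observed to expected was 1.19 and 1.13 in the keratinocyte libraries and 1.07 in both thymocyte libraries. Over all contacts of the locus at that distance the same ratio was 1.01, 1.05, 1.06 and 1.05. At 10 to 50 kb the involucrin ratio was 1.05, 0.98, 1.11 and 1.07. Beyond 2000 kb the observed medians were 49.7, 33.8, 46.6 and 17.1. The share of involucrin contacts at 200 to 500 kb with a q-value under 0.05 was 18.1% and 14.4% in the keratinocyte libraries, where all contacts at that distance gave 6.64% and 9.16%. In the thymocyte libraries it was 7.03% and 11.9%, beside 10.5% and 11.3%.

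**Figure D2:**
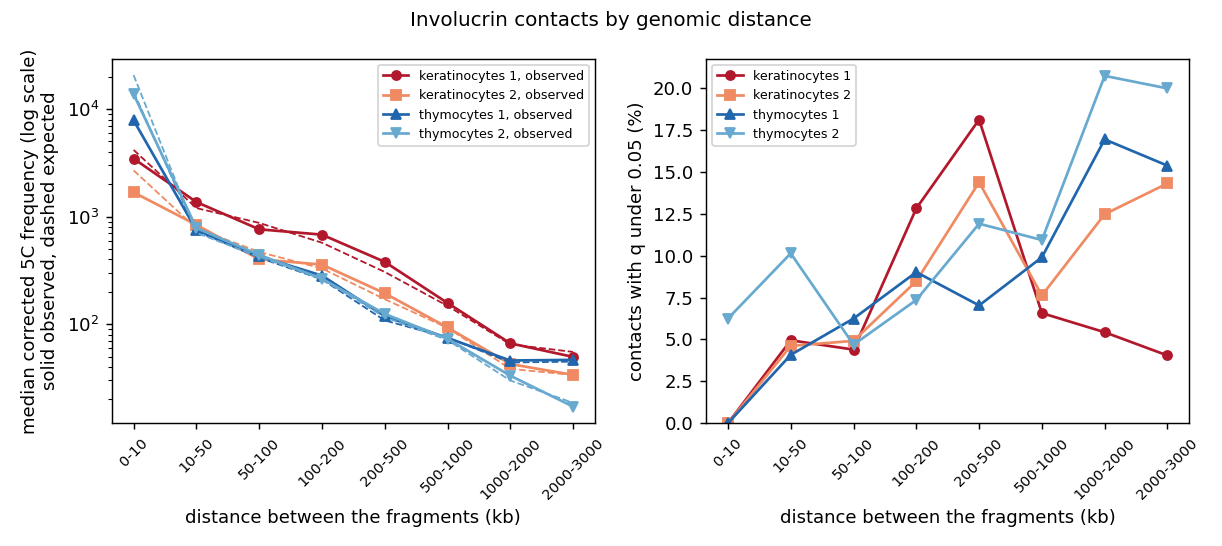
The left panel plots the median corrected 5C frequency of the involucrin contacts on a log scale, observed as solid and expected as dashed lines, against the distance between the fragments (kb), and the right panel plots the percentage of contacts with a q-value under 0.05. At 200 to 500 kb the percentage reaches 18.1% and 14.4% in the keratinocyte libraries, and in the thymocyte libraries it is higher beyond 1000 kb than at that distance.

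The excess in keratinocytes lay on one side of Ivl. TAD3, the topologically associating domain that holds Ivl, carries the Sprr genes at lower coordinates, with Lor just past its border in TAD2, and Lce1 genes at higher coordinates. On the Sprr side of TAD3 the mean Z score of the 186 involucrin contacts listed in all 4 libraries was 1.42, 0.77, 0.45 and 0.69. Both keratinocyte libraries thus lay above both thymocyte libraries, with a difference of the means of 0.52. On the Lce side the mean over 130 contacts was 0.05, -0.18, 0.24 and 0.37, so there both keratinocyte libraries lay below both thymocyte libraries. Contacts within TAD3 between other fragments had means of 0.66, 0.49, 0.42 and 0.45. With 2 libraries against 2 a two-sided exact permutation test cannot give a p below 0.333, so that test cannot call either difference. The difference on the Sprr side was carried most by keratinocyte library 1. It was 0.20 without that library and 0.85 without keratinocyte library 2. Over well listed fragments the means on the Sprr side were 1.33, 0.64, 0.28 and 0.59.

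In bins of 100 kb the bin 0.43 Mb from the Ivl start towards Lor had mean Z scores of 2.23, 1.80, 0.52 and 0.47. Keratinocyte library 2 had a higher mean, 3.34 over 9 contacts, in the bin at 1.43 Mb on the same side, where keratinocyte library 1 had 0.57 over 17 contacts. The next bins towards Ivl gave keratinocyte means of 1.49 and 1.74 at 0.33 Mb, 1.69 and 0.99 at 0.23 Mb, and 1.33 and 0.75 at 0.13 Mb. Of the 5 bins between 0.1 and 0.6 Mb on this side, 4 had both keratinocyte libraries above both thymocyte libraries and 1 overlapped. Of the other 45 bins with values in all 4 libraries, 2 had the keratinocytes above, 25 had them below and 18 overlapped. Bins were not counted for other fragments, so these counts do not set the window apart. Over all listed contacts of the locus the means were 0.24, 0.58, 0.66 and 0.76, also lower in keratinocytes. Listed contacts within TAD3 between other fragments gave 0.74, 0.60, 0.44 and 0.35, also higher in keratinocytes. The binned profile correlated at a Pearson's r of 0.51 for the keratinocyte pair and 0.08 for the thymocyte pair, over 46 bins that share the same fragments.

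**Figure D3:**
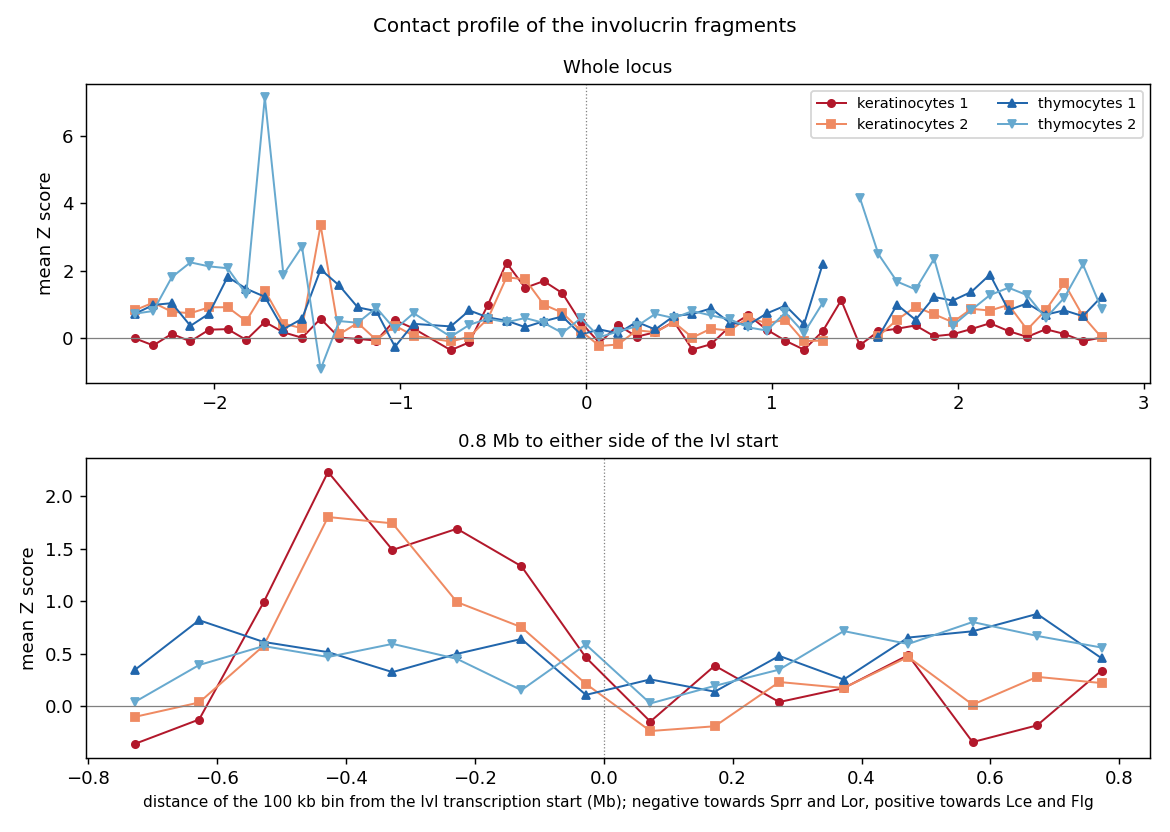
Mean Z score of the involucrin contacts in bins of 100 kb against the distance of the bin from the Ivl transcription start (Mb), with 1 line per library, over the whole locus (top) and within 0.8 Mb (bottom). Both keratinocyte lines rise above both thymocyte lines between 0.5 and 0.1 Mb on the Sprr and Lor side, reaching 2.23 and 1.80, and no like rise appears on the Lce side.

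Most groups of genes did not share this pattern. Contacts were sorted into 18 gene groups by the midpoint of the other fragment. It had to lie between the first and the last gene of the group, extended by 10 kb at either end. Such a span also holds any other genes that lie in between. Some spans overlap, so a contact can count again in a neighbouring group. In 4 groups both keratinocyte means of the Z score lay above both thymocyte means, in 8 they lay below, and in 6 the libraries overlapped. Contacts of the same groups with fragments outside the window were averaged over the 2 libraries of each cell type. There the thymocyte mean was higher in every group but Lor, the Tdpoz genes and the selenium binding protein genes. For the Lce6a and Lce1 genes it was 0.52, against 0.45 in keratinocytes, and for the Sprr2 genes 0.61 against 0.46. For Lor it was 0.74 against 0.87. The values below are those of the involucrin contacts. The Sprr2 genes, which code for envelope precursors rich in proline, stood at 1.67, 0.73, 0.46 and 0.59 over 72 contacts. Their medians were 1.04, 0.36, 0.35 and 0.39, so by the median keratinocyte library 2 lay between the thymocyte libraries. Loricrin, the most abundant envelope protein, stood at 2.48, 0.55, 0.30 and 0.48 over 6 contacts, so its keratinocyte libraries differed from each other by more than keratinocyte library 2 differed from the thymocytes. The remaining groups with higher keratinocyte values were Prr9 with Lelp1 (11 contacts) and S100a3 to S100a6 (3 contacts), which code for calcium-binding proteins. Prr9 with Lelp1 stood at 1.26, 1.89, 0.92 and 1.25, so keratinocyte library 1 and thymocyte library 2 were nearly level. S100a3 to S100a6 stood at 0.71, -0.21, -1.25 and -0.50.

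On the Lce side of Ivl the order was reversed for most groups. There S100a10 with S100a11 overlapped, at 0.53, 0.27, 0.41 and 0.13 over 37 contacts, and so did the selenium binding protein genes. The Lce6a and Lce1 genes, late envelope precursors, stood at 0.06, -0.20, 0.25 and 0.37 over 121 contacts. The filaggrin group, whose proteins bundle keratin filaments, stood at 0.14, 0.07, 0.57 and 0.61 over 90 contacts. The order was also reversed far out on the Sprr side, towards TAD1, where contacts with Pglyrp4 stood at -0.09, 0.22, 2.39 and 3.14 over 9 contacts. The S100 genes of inflammation, which include S100a8 and S100a9, stood at 0.45, 1.68, 2.67 and 2.03 over 23 contacts. Their medians of 0.26, -0.19, -0.18 and -0.23 did not show that order. Them4 with Them5, also among the 8 groups, had medians of 0.48, 0.27, -0.09 and -0.22, the opposite order of its means. The medians for Pglyrp4, the Lce6a and Lce1 genes and the filaggrin group kept the order of the means. The Sprr1, Sprr3 and Sprr4 genes, which lie closest to Ivl on the Sprr side, overlapped between the cell types at 0.86, 0.41, 0.69 and 0.47 over 47 contacts.

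**Figure D4:**
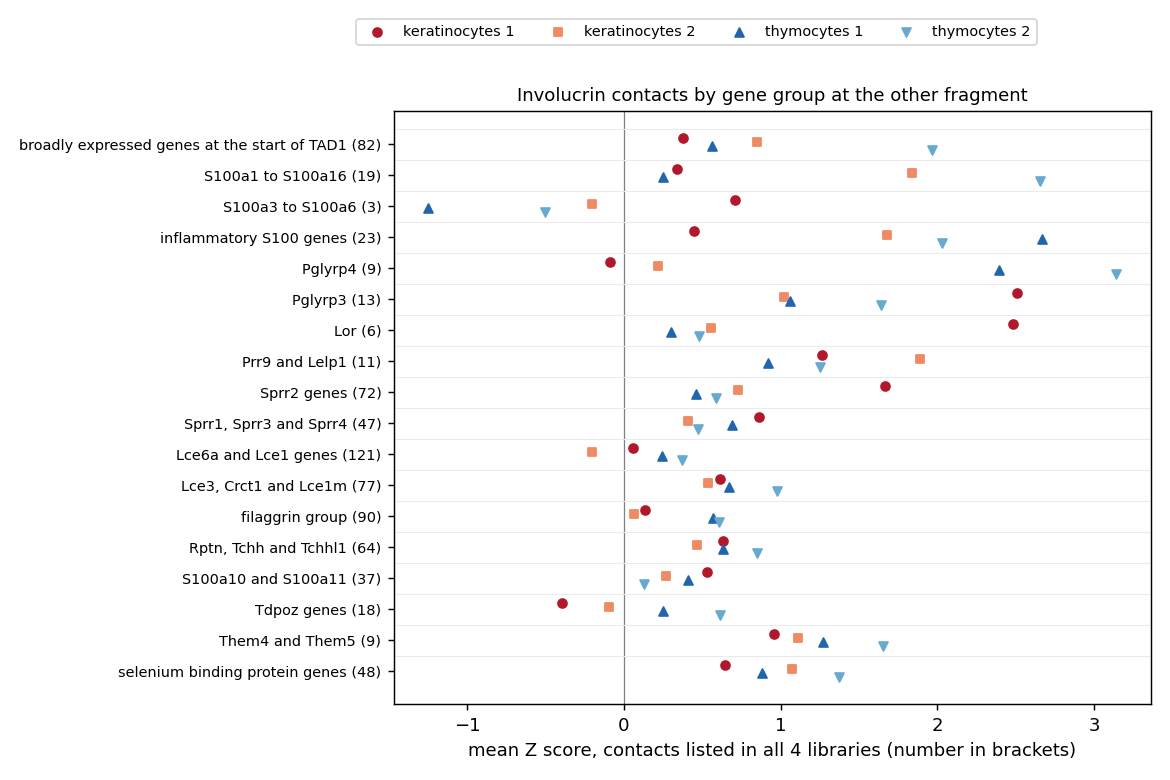
Mean Z score in each library of the involucrin contacts listed in all 4 libraries, by gene group (number of contacts in brackets), in chromosome order from top to bottom. The midpoint of the other fragment lies in the span of the group's genes, extended by 10 kb at either end. Keratinocyte points lie to the right of thymocyte points for 4 groups, among them Sprr2 and Lor, and to the left for 8 groups.

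A contact was called in a cell type when its q-value was under 0.05 in both libraries. In keratinocytes 59 of 3031 involucrin contacts were called (1.95%), beside 1.99% of all contacts. In thymocytes 66 of 1677 were called (3.94%), beside 4.03% of all contacts. The window as a whole was therefore called about as often as the rest of the locus. Over well listed fragments the counts were 38 of 2709 (1.40%, against 1.43% of all contacts) and 43 of 1499 (2.87%, against 2.89%). In single libraries 6.86%, 11.6%, 12.0% and 15.4% of the involucrin contacts passed, beside 5.99%, 11.4%, 11.7% and 14.5% of all contacts.

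The keratinocyte calls were uneven along the locus. On the Sprr side of TAD3, 17 of 276 contacts were called (6.16%), and on the Lce side none of 202. All contacts within TAD3 gave 3.04%. Thymocytes had 6 of 215 called on the Sprr side (2.79%) and 3 of 159 on the Lce side (1.89%), beside 2.07% of all contacts within TAD3. At 200 to 500 kb on the Sprr side 15 of 163 contacts were called in keratinocytes (9.20%) and 3 of 119 in thymocytes (2.52%), where all contacts at that distance gave 2.05% and 3.57%. At the same distance on the other side keratinocytes had 2 of 193 called (1.04%). Over well listed fragments the Sprr side of TAD3 kept 9 of 228 keratinocyte calls (3.95%), other contacts within TAD3 gave 22 of 1085 (2.03%), and the Lce side had 0 of 182. Thymocytes under the same limit had 4 of 194 called on the Sprr side (2.06%) and 11 of 1001 among other contacts within TAD3, so there the Sprr side also had the higher share. Whether the sparse listing of fragments has a part in the higher share was not tested beyond these counts.

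Called contacts reached far beyond the domain. By domain of the other fragment, keratinocytes had 13 of 620 called in TAD1 (2.10%), 17 of 478 in TAD3 (3.56%), 8 of 710 in TAD4 (1.13%) and 12 of 492 in TAD6 (2.44%). Thymocytes had 13 of 244 in TAD1 (5.33%), 9 of 374 in TAD3 (2.41%), 17 of 492 in TAD4 (3.46%) and 18 of 208 in TAD6 (8.65%). The other fragments of TAD3 gave 1.47%, 2.93%, 1.29% and 1.73% with the same 4 domains in keratinocytes, and 4.14%, 2.01%, 2.39% and 3.70% in thymocytes. TAD3 itself had the highest keratinocyte share of the 4 for the window and for the other fragments alike. In keratinocytes 42 of the 59 joined the window to other TADs, and in thymocytes 57 of 66 did. The median distance was 1684 kb over all 59 keratinocyte calls and 1714.5 kb over all 66 thymocyte calls, those within TAD3 included. The 59 keratinocyte calls used 53 different partner fragments and 18 of the 19 window fragments. Few were backed by an adjacent fragment. A called contact had a called neighbour, the contact with the next fragment of the same kind on either side, in 8 of 59 cases in keratinocytes (13.6%, against 18.2% of all called contacts) and in 0 of 66 in thymocytes (against 12.2%). The median Z score was 4.88 for the keratinocyte calls and 0.77 for their neighbours. In thymocytes the medians were 6.71 and 0.11.

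**Figure D5:**
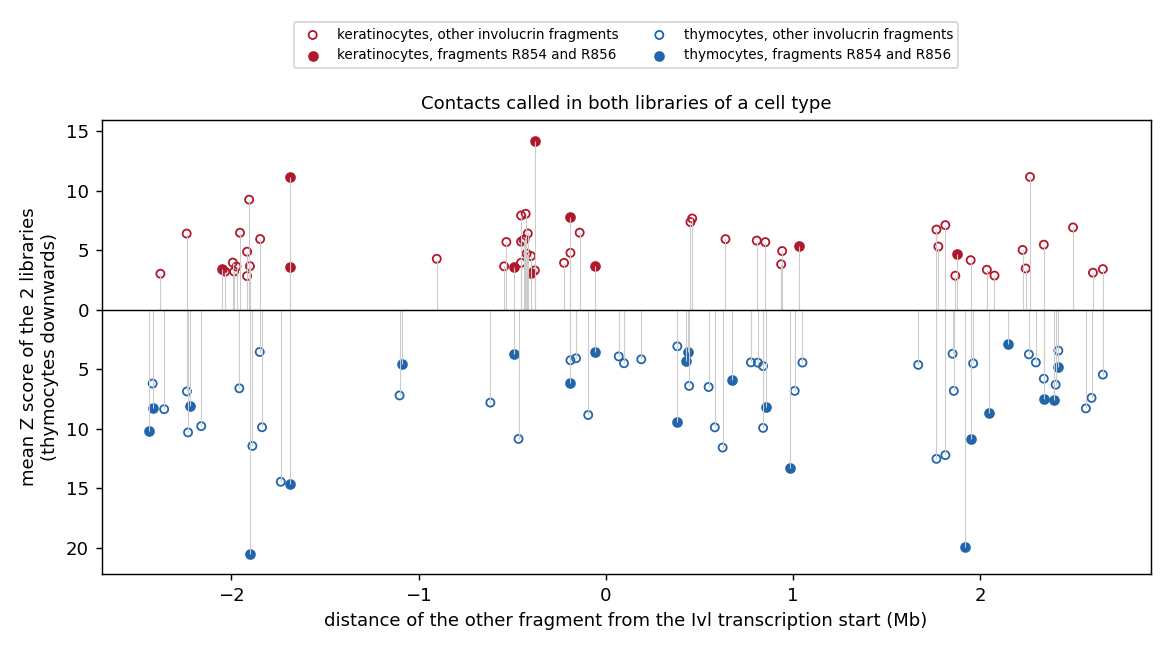
Each point is an involucrin contact called in both libraries of a cell type, placed by the distance of the other fragment from the Ivl transcription start (Mb) and by the mean Z score of the 2 libraries, keratinocytes upwards in red and thymocytes downwards in blue. Filled points belong to R854 and R856, the fragments on either side of the start, and the keratinocyte calls include a cluster between 0.3 and 0.5 Mb on the Sprr and Lor side.

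Part of the keratinocyte cluster sat at Prr9 and Lelp1, genes between Lor and the Sprr2 cluster that code for proline-rich proteins. Of 26 involucrin contacts with the 6 fragments at these genes, 7 were called in keratinocytes (26.9%), whereas other contacts of the same fragments were called in 3.27% of cases. Those other contacts that spanned 200 to 500 kb were called in 3 of 61 cases (4.92%). In thymocytes 0 of 11 were called, beside 13 of 268 other contacts of these fragments (4.85%) and 0 of 31 at 200 to 500 kb. F702-R870 at Lelp1, whose junction is shown above, had corrected frequencies of 1314, 764, 169 and 451 where 281, 160, 99.0 and 118 were expected. It was enriched in both keratinocyte libraries and in thymocyte library 2, with Z scores of 7.24, 8.88, 1.73 and 7.57. Of the 6 fragments, 3 were sparsely listed in keratinocyte library 2, and they carried 5 of the 7 calls. R696 at Prr9, which was called with F843, F847 and F866, was listed with 15.3% of opposite fragments in keratinocyte library 2. F699 was listed with 12.7% and F702 with 12.4% there. Over well listed fragments 1 of 17 contacts was called, and without these genes the Sprr side of TAD3 had 10 of 250 called in keratinocytes (4.00%).

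A set of 8 contacts was called in all 4 libraries, or 0.598% of the 1337 contacts listed in all of them, beside 0.581% of all contacts. In this set 4 contacts belonged to R856, upstream of the Ivl promoter. F683-R856 joined it to Lor at 485 kb, with frequencies of 759, 355, 257 and 267 against expected values of 263, 148, 115 and 96.7. Its Z scores of 3.80, 3.46, 3.17 and 4.23 were close in all libraries. F801-R856 joined it to Sprr2g and Sprr2h at 189 kb, with frequencies of 1182, 1740, 405 and 746 against 524, 277, 174 and 222. Its Z scores of 2.73, 12.79, 4.91 and 7.38 were spread more widely, with the highest and the lowest both in keratinocytes. F830-R856, at 58 kb and nearest to Sprr4, had Z scores of 3.48, 3.85, 3.23 and 3.87. F246-R856, at 1685 kb in the gene-poor TAD2 past Pglyrp4, had Z scores of 4.12, 3.07, 6.56 and 22.79, so its last value stood far above the other libraries.

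The other 4 contacts of this set used fragments farther from the start, and 3 of them are described here. F801 at Sprr2g and Sprr2h was called again with R865, 29.3 kb upstream of the Ivl start, at Z scores of 4.62, 4.94, 4.60 and 3.89. F866, at 31.1 kb upstream, was called with R1411 at Them4 and Them5, which code for thioesterases of fatty acyl chains, at 3.23, 10.25, 7.98 and 17.07. F866 was listed with under 20% of opposite fragments in thymocyte library 1. F850-R1571, nearest to Selenbp1 (a selenium-binding protein), had Z scores of 5.93, 5.01, 5.72 and 5.86.

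The fragments next to the start were called at different rates in the cell types. R856 had 7 of 247 contacts called in keratinocytes (2.83%) and 15 of 164 in thymocytes (9.15%). R854 had 3 of 202 called in keratinocytes (1.49%) and 7 of 82 in thymocytes (8.54%). The thymocyte shares lay above the 4.03% of all contacts. In thymocyte library 1 R854 was listed with 32.7% of opposite fragments, against 60.2% for R856. Although these fragments are neighbours of 1 gene, their profiles were unrelated across shared partners. Pearson's r of the Z score between R854 and R856 was 0.04, 0.06, 0.01 and -0.05 over the 270, 201, 92 and 154 forward fragments listed with both. Neighbouring fragments over the whole locus had a median r of 0.15, 0.05, 0.05 and 0.05.

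In keratinocytes R856 was called with 3 partners beside the 4 shared ones. F714-R856, nearest to Lelp1, had Z scores of 3.18, 3.03, -0.39 and -0.35 and was enriched in the keratinocyte libraries alone. F1172-R856, nearest to S100a10 (a partner of annexin A2), had 3.52, 7.20, -0.41 and 2.17. F1432-R856, at Oaz3 and Mrpl9, had 3.31, 6.12 and -1.14 and was not listed in thymocyte library 2. R854 was called with F130 at E2, given below, and with F725 and F246. F725-R854, nearest to Sprr2a1, had the highest mean Z score of any keratinocyte contact here, 14.22 ± 9.30 (SD, n = 2). Its frequency was 1684 in the first library and 1773 in the second, where 345 and 182 were expected. F246-R854, in TAD2 past Pglyrp4, followed at 11.19 ± 4.77 and F866-R1546 at Pogz, a chromatin protein with zinc fingers, at 11.16 ± 7.53. None of these 3 contacts was listed in a thymocyte library, so the cell types cannot be compared on them.

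In thymocytes the highest values belonged to R856. F176-R856, at S100a8, had frequencies of 10.7, 10.2, 332 and 103 where 59.5, 30.8, 29.8 and 12.9 were expected. Both keratinocyte libraries lay below the expected frequency and both thymocyte libraries far above it, with Z scores of -1.32, -1.42, 24.23 and 16.74. F1442-R856, at Celf3 and Snx27, which code for an RNA-binding protein and a sorting nexin, had -1.06, 6.87, 15.37 and 24.46, so keratinocyte library 2 also passed a q-value of 0.05. S100a8 forms the antimicrobial protein calprotectin with S100a9.

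Other thymocyte calls of R856 fell at both ends of the locus and in TAD4. Towards TAD1 they were F10-R856 at Nup210l (Z scores 0.63, 18.58, 14.47 and 5.90) and F72-R856 at Gatad2b, a subunit of a deacetylase complex (0.14, -1.07, 3.33 and 12.82). In TAD4 they were F973-R856 at Lce3f (0.23, 0.70, 4.91 and 3.68), F980-R856 at Crct1 and Lce1m (1.25, 3.25, 3.55 and 3.47) and F1110-R856 at Gm5278 (4.57, 0.30, 4.72 and 11.60). In TAD6 they were F1475-R856 at Tuft1 (-0.35, 0.25, 11.59 and 5.68), F1507-R856 at Cgn, which codes for the tight junction protein cingulin (-0.07, 0.71, 2.98 and 2.72), and F1602-R856 at Pi4kb, a lipid kinase (-0.17, -0.84, 4.61 and 5.09). The fifteenth, F1587-R856, lies at E14. In F10, F980 and F1110, 1 keratinocyte library also reached a Z score above 3, and the other 5 listed here stayed below that in both.

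R854 was called in thymocytes with partners of the same regions. They were F14-R854 at Nup210l (1.70, 2.29, 5.84 and 10.58), F476-R854 in TAD2 nearest to 9130204L05Rik (-1.19, 2.68, 2.45 and 6.67), F958-R854 at Lce3c and Lce3d (-0.24, -0.81, 6.03 and 12.82) and F1052-R854 nearest to Flg2, a filaggrin relative (-0.18, -0.23, 6.11 and 5.68). Farther away they were F1450-R854 at Snx27 (-0.87, 2.51, 7.31 and 14.42) and F1572-R854 nearest to Selenbp1 (-0.86, -0.28, 4.73 and 10.24). The seventh, F1151-R854, lies at E11. No contact of R854 called in thymocytes was called in keratinocytes.

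The study marked 16 putative enhancers, E1 to E16, by histone modifications in basal keratinocytes. Contacts of the involucrin window with fragments within 10 kb of an enhancer were called in 8 of 358 cases in keratinocytes (2.23%), and its contacts elsewhere in 51 of 2632 (1.94%). For all other fragments of the locus the same shares were 1.90% and 2.03%. In thymocytes 9 of 190 enhancer contacts were called (4.74%) and 57 of 1456 others (3.91%), where all other fragments of the locus gave 4.65% and 3.85%. The shares thus lay close to those of the rest of the locus in both cell types. No enhancer contact was called in both cell types.

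The keratinocyte enhancer calls fell mostly in TAD1, about 2 Mb from Ivl. There 2 of 37 contacts were called at E2 and E3 (5.41%) and 4 of 58 at E4 to E7 (6.90%). The gene groups there do not hold the same fragments as these enhancer sets. By gene group the window had 2 of 56 called at S100a1 to S100a16 (3.57%) and 2 of 16 at S100a3 to S100a6 (12.5%). Contacts of fragments outside the window gave 2.40% and 6.53% for those groups. At E2 and E3, beside S100a13, S100a14 and S100a16, F130-R854 had Z scores of 3.85 and 3.01 and reached 4.01 in thymocyte library 2, while thymocyte library 1 did not list it. F137-R844 had 3.10 and 3.32 and no thymocyte value. In the E4 to E7 cluster, beside S100a3 to S100a6, F154-R851 had 4.11 and 3.82 and no thymocyte value. R851 was sparsely listed in keratinocyte library 2, with 14.1% of opposite fragments. F871-R158 had 3.81 and 3.44, and F866-R164 had 3.90 and 9.05, but thymocyte library 2 also gave them 8.60 and 8.78. F871-R155 had 3.27, 3.16, 0.63 and -1.04, and it was the only one of the 8 listed in all 4 libraries. Outside TAD1 F1485-R844 at E12 and Tuft1 had 3.01 and 2.73, with -0.79 in thymocyte library 2. F850-R1672 at E15 and Mllt11 had 2.98 and 3.86, with -1.65 in thymocyte library 1.

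The thymocyte enhancer calls were spread over the locus. F822-R865, which joins the window to E8 beside Sprr1a, the enhancer nearest to Ivl, had 5.36, 1.33, 14.39 and 3.29, so keratinocyte library 1 passed as well. F1151-R854 at E11 and S100a10 had 13.77, no value, 20.34 and 6.18, with enrichment in every library that listed it. F1587-R856 at E14, beside Rfx5 and Pi4kb, had 2.18, no value, 4.41 and 10.69. The others were F35-R870 at E1 (0.34, 5.30, 3.09 and 13.62), F857-R1017 at E9 (1.01, no value, 7.28 and 5.70), F850-R1080 at E10 (-1.05, 1.21, 3.15 and 5.70), F843-R1594 at E14 (0.49, 6.26, 5.51 and 7.08), F843-R1672 at E15 (-0.07, -1.37, 4.11 and 6.78) and F871-R162 at E6 and E7 (2.47 and 10.73 in thymocytes, with no keratinocyte value). R854 and R856 had 83 contacts with enhancer fragments in all, of which 18 were listed in all 4 libraries. A q-value of 0.05 was passed by 4 of 77 listed in keratinocyte library 1 and 6 of 54 in keratinocyte library 2. It was passed by 8 of 35 in thymocyte library 1 and 9 of 45 in thymocyte library 2. Over all contacts of the locus the shares were 5.99%, 11.4%, 11.7% and 14.5%. With all partners outside the window, R854 passed in 6 of 277, 25 of 225, 30 of 108 and 32 of 180 contacts. R856 passed in 20 of 313, 43 of 252, 34 of 200 and 42 of 218.

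A called contact did not always have values in the other cell type. Of the 59 keratinocyte calls, 11 were listed in neither thymocyte library, 27 in 1 and 21 in both. Of those 21, 8 were called in both thymocyte libraries, 6 passed in 1 and 7 in neither. Of the 66 thymocyte calls, 53 were listed in both keratinocyte libraries, where 8 were called, 18 passed in 1 library and 27 in neither. Among the 1337 contacts with a value in every library, keratinocytes had 21 called (1.57%, against 2.03% of all contacts) and thymocytes 53 (3.96%, against 3.77%). Of these, 13 were called in keratinocytes only (0.972%, against 1.45%) and 45 in thymocytes only (3.37%, against 3.19%). Both keratinocyte Z scores lay above both thymocyte Z scores in 231 contacts (17.3%, against 21.1%) and below them in 284 (21.2%, against 19.1%).

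No single contact passed an adjusted p of 0.05 between the cell types. With 2 libraries per cell type, this lack of calls does not show that the contacts were alike. limma on the Z scores of the 23395 contacts listed in all 4 libraries gave 0 involucrin contacts at an adjusted p of 0.05 (background 0.0%), with a lowest adjusted p of 0.767. At an unadjusted p under 0.05 it gave 58 of 1337 (4.34%), beside 5.11% of all contacts. The largest differences with lower values in keratinocytes were -21.85 (SE 4.54) for F176-R856, -17.01 (SE 4.42) for F1442-R856 and -11.07 (SE 6.33) for F246-R856. In the other direction they were 9.76 (SE 5.90) for F847-R100 at Npr1 and Ilf2, 8.84 (SE 4.53) for F847-R126 at E2 and 7.48 (SE 3.32) for F61-R854 at Gatad2b. All 6 missed the threshold, F176-R856 despite an unadjusted limma p of 0.0029. In the last 3, keratinocyte library 2 alone held the high value, with Z scores of 17.07, 13.85 and 10.58 against -0.15, 0.85 and 1.97 in keratinocyte library 1.

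Over the contacts listed in all 4 libraries the mean Z score was 0.49, 0.44, 0.65 and 0.95. It averaged 0.46 ± 0.03 in keratinocytes and 0.80 ± 0.21 in thymocytes (SD, n = 2), a difference of -0.34, beside -0.11 for all contacts. The medians of 0.25, 0.12, 0.14 and 0.19 differed by 0.02 in the opposite direction, so the mean and the median disagreed in sign. Within the window itself, none of 41 keratinocyte and none of 31 thymocyte contacts was called in both libraries.

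The keratinocyte profile of Ivl over the locus most resembled those of genes in the late envelope cluster of TAD4. Pearson's r of the mean Z score in 100 kb bins was 0.55 for Crct1 and for Lce1m over 42 bins, and 0.51 for Lce3f, where the median of 107 genes was 0.11. Crct1 and Lce1m share the same fragments, so they count as 1 profile. In thymocytes the same genes had an r of 0.33, 0.33 and 0.26, beside a median of -0.01. Some other genes of the same cluster were as like Ivl or more so in thymocytes, with an r of 0.52 for Lce3b (0.15 in keratinocytes), 0.50 for Lce3c (0.46) and 0.46 for Lce3d (0.40). Single libraries were uneven. In thymocyte libraries 1 and 2 the r was 0.25 and 0.45 for Lce3b, 0.14 and 0.71 for Lce3c, and 0.01 and 0.70 for Lce3d. In keratinocyte libraries 1 and 2 it was 0.72 and 0.39 for Crct1.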

How the data were processed

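The authors demultiplexed the reads with Novobarcode, aligned them with Bowtie to the probe sequences (mm9), counted forward and reverse probe pairs, removed outlying probes and single contacts with a Z score of 25 or more, and corrected probe coverage by a Loess fit per library. The signal that the authors deposited is the corrected frequency, with the expected frequency and its standard deviation. A Z score per contact was the deposited score. The p-value and q-value that the authors deposited come from a Weibull fit per library. Coordinates and distances were deposited as other values.

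Fragments were assigned by midpoint, with TAD borders, enhancers, genes and probes from the study's supplements. The members, gene groups and other lists were chosen with earlier results of these data known. Named contacts were those called with the fragments next to the Ivl start, at an enhancer or in both cell types, the 3 with the highest mean Z score per cell type, and the 3 largest limma differences per direction. Genes were named within 10 kb of the fragment, else the nearest, and like profiles were ranked among genes beyond 200 kb. limma 3.58.1 in R 4.3.3 (lmFit, eBayes with trend, Benjamini-Hochberg over 23395 contacts) was tested on simulated data. pandas 2.3.3, NumPy 2.4.6 and SciPy 1.17.1 in Python 3.11.15 did the rest. Library numbers were not used as a block. Alternatives were other q-value thresholds, windows, distances, scales and left-out libraries. The values of 1 contact called in both cell types are not reported here.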

Additional observations from a re-analysis of the deposited data

How the results depend on the processing

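Depth in reads is unknown, so how far sparse counts limit a contact was not tested. Of 54 calls of named contacts, 41 held at a q-value under 0.01 and 52 under Benjamini-Hochberg adjustment. Leaving out a library only relaxes a call and tests nothing there. The 59 keratinocyte calls became 34 at a q-value under 0.01, 28 in a window 20 kb narrower on each side, 38 over well listed fragments and 189 to 346 when 1 library alone was asked for. The 66 thymocyte calls became 33 in the narrower window, 43 over well listed fragments and 179 to 208 in 1 library alone. The 17 keratinocyte calls on the Sprr side of TAD3 became 9 at a q-value under 0.01, 7 in the narrower window, 9 over well listed fragments, 10 without Prr9 and Lelp1 and 40 to 61 in 1 library alone. The 7 calls at Prr9 and Lelp1 became 2 in the narrower window and 1 over well listed fragments. These counts on the Sprr side and over well listed fragments were chosen after seeing the data. Whether a cause other than the smaller windows, fewer fragments or single libraries had a part was not tested.

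limma called 0 contacts on the Z score and in every alternative but the log2 of the corrected frequency, which is not scaled between libraries. There it called 4 of 1337, all lower in keratinocytes and all between neighbouring fragments of the window and its edge (F871-R870, F843-R839, F850-R849 and F843-R841), with a lowest adjusted p of 0.0235. The median difference over all contacts was 0.58 on that scale. The difference in mean Z score of -0.34 became 0.017 as a median, -0.13 as a mean log2 ratio of observed to expected, and -0.49 to -0.19 with a library left out. The difference of 0.52 on the Sprr side became 0.92 over all contacts that each library lists, and ranged from 0.20 to 0.85 with a library left out. The labels and methods do not pair libraries of the cell types. The deviations of libraries with the same number correlated at -0.08 across the involucrin contacts, which share fragments, so this value cannot show whether libraries were prepared in pairs. With the replicate block limma called 0 contacts, and the difference in mean Z score is -0.34 by construction, since a balanced block cannot move it.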
